A study of Homo sapiens with 6 samples.

Results

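The DNA methyltransferases and their maintenance partners were followed in A-498, an established cell line from a human kidney tumour (renal cell carcinoma), after zebularine, a cytidine analogue that inhibits DNA methyltransferases. The 9 genes are DNMT1, DNMT3A, DNMT3B, DNMT3L, TRDMT1, UHRF1, HELLS, TDG and MBD4, and every probe set annotated to exactly 1 of them was taken, dim ones included. This gave 12 of the 22277 probe sets on the array. They stand for 8 of the 11963 genes with a probe set of their own, and UHRF1 was not analysed here. The 3 treated cultures (zebularine) were kept with 1000 µM zebularine for 120 h, and the 3 control cultures (untreated) were kept as long without the drug. Both groups were grown as monolayers in RPMI-1640 with fetal calf serum and were split and given fresh medium at set days of the treatment. A treated and an untreated culture share each replicate number (1, 2 and 3, called experiments here), and each culture gave 1 Affymetrix array of total RNA. All cultures are of 1 tumour cell line, so the spread between them says nothing about other lines.

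In mammalian cells a methyl group sits mainly on cytosines that precede guanine (CpG). DNMT3A and DNMT3B set new methyl marks, DNMT3L has no catalytic activity of its own and stimulates both, and DNMT1 copies the marks onto the new strand behind the replication fork, to which UHRF1 guides it. HELLS, a chromatin remodeller, helps methylation reach packed DNA. The glycosylases TDG and MBD4 cut out thymine from mismatched CpG sites, and TDG also cuts out modified cytosine. These cuts begin the repair route of demethylation. TRDMT1 has the fold of a DNA methyltransferase and methylates transfer RNA. Cytidine analogues such as zebularine are built into DNA, where methyltransferases become trapped on them, so loss of enzyme protein can occur without a change of the transcript, and the arrays measured transcripts only.

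The starts of 3 of the genes are shown because DNA methylation sits mainly on CpG sites. Each window runs from 250 bases before to 50 bases after the annotated start in RefSeq (GRCh38.p14), is written 5′ to 3′ on the gene's strand, and has its CpG sites in capitals. TRDMT1 had the largest positive difference of the tested members (chr10:17201623-17201922, minus strand), MBD4 was measured by 4 probe sets (chr3:129439899-129440198, minus strand), and DNMT1 is the maintenance enzyme (chr19:10194904-10195203, minus strand).
TRDMT1: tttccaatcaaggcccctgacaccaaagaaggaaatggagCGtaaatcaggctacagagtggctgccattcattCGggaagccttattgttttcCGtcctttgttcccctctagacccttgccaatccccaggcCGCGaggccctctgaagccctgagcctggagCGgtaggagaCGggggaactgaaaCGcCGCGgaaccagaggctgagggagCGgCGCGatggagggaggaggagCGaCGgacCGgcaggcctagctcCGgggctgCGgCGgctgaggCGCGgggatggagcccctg
MBD4: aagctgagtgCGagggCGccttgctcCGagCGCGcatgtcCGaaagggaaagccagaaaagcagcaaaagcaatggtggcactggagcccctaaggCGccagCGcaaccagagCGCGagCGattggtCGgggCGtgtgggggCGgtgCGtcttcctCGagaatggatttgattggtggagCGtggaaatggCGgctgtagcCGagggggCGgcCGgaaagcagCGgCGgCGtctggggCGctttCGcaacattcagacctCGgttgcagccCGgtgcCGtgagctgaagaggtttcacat
DNMT1: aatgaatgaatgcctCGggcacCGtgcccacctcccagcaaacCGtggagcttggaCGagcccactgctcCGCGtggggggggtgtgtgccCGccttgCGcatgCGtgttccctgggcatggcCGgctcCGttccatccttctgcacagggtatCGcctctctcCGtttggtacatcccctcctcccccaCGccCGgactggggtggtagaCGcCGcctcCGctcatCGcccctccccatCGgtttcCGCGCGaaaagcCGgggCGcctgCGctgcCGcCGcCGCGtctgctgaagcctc

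These windows hold 21 CpG sites for TRDMT1, 29 for MBD4 and 30 for DNMT1, against a median of 14 over the 35116 windows of the table. At least as many sites as at DNMT1 were found in 22.4% of all windows, and at least as many as at TRDMT1 in 39.5%. Of the 8 genes on the array 7 had a window, and DNMT3L had none. At 6 genes a window lay at the outermost annotated start, where 18 to 30 CpG sites were counted, with HELLS and TDG at 22 each. DNMT3A had 18 sites at its outermost start, but a window at another of its annotated starts held 46, a count reached by 2.89% of all windows. The window of DNMT3B, with 3 sites, lies at an internal start and says nothing of the outer one. The E2F consensus, searched as TTTCCCGC, TTTCGCGC, TTTGCCGC or TTTGGCGC on both strands with overlaps allowed, occurred once at DNMT1 and at 2 positions at HELLS, while 3.31% of all windows hold it and the other members' windows do not. A match describes letters in a window and shows no binding, and CpG methylation was not measured.

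Values are MAS5 signals, and a signal of 78.6 units, the 40th percentile of all values, is used below as the mark between dim and brighter probe sets. Array medians ran from 126.4 to 134.4 in zebularine and from 117.9 to 140.7 in untreated cultures. The brightest signal of experiment 3 was lower, at 27499.7 on the zebularine and 31176.4 on the untreated array, against 58719.2 to 62831.6 on the other 4. The 3' to 5' signal ratio of GAPDH, a sign of RNA integrity, ran from 1.01 to 1.34 in zebularine and from 1.07 to 1.52 in untreated cultures. That of ACTB was 5.25, 2.06 and 1.49 in zebularine cultures of experiments 1, 2 and 3, against 3.10, 2.38 and 1.71 in untreated cultures, so both arrays of experiment 1 were highest in their group and its zebularine array stood apart. Of 7 kidney tumour and epithelial markers 6 had a probe set, and all 6 (KRT8, KRT18, MET, PAX2, PAX8 and VIM) were above 78.6 on every array, with summed signals of 49294.4 to 68788.2 in zebularine and 53257.9 to 71891.4 in untreated cultures. The 3 leukocyte markers with a probe set were below 78.6 on every array (summed signals of 90.6 to 132.4 in zebularine and 34.6 to 168.9 in untreated cultures). The 3 endothelial markers summed to 147.4 to 191.2 in zebularine and 91.1 to 141.2 in untreated cultures, and the 6 fibroblast markers to 488.3 to 775.2 in zebularine and 313.1 to 492.0 in untreated cultures. Of the fibroblast markers COL1A1 alone was above 78.6 on every array. What part these ratios and shifts have in the results below was not tested. In bulk RNA, more cells with a transcript and more transcript per cell cannot be told apart.

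The transcript of the maintenance enzyme DNMT1 was among the bright members and did not pass the test. Its signals (201697_s_at) were 964.0, 1439.7 and 1273.7 in zebularine cultures of experiments 1, 2 and 3, against 881.8, 1147.7 and 979.0 in untreated cultures. Every treated array lay above the untreated array of its own experiment, but the groups overlapped, since the zebularine culture of experiment 1 was below the untreated cultures of experiments 2 and 3. The means were 1226 ± 241 and 1003 ± 135 signal units in zebularine and untreated cultures (SD, n = 3 each). On the log2(signal + 16.34) scale, where a pseudocount damps the noise of dim signals and understates their folds, the difference was 0.27 ± 0.25 (standard error; limma, Benjamini-Hochberg adjusted p = 0.704). Its 95% interval, from -0.28 to 0.83, holds differences of either sign.

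DNMT3B, a de novo methyltransferase, had the lowest difference of the tested members. Its signals (220668_s_at) were 835.1, 408.1 and 431.5 in zebularine cultures, against 1432.2, 796.5 and 613.9 in untreated cultures. All 3 experiments ran the same way, and the groups overlapped because experiment 1 was bright in both arms: its zebularine culture exceeded the untreated cultures of experiments 2 and 3. The differences within experiments 1, 2 and 3 were -0.77, -0.94 and -0.49 on the log2 scale. The mean difference was -0.73 ± 0.36 (standard error; limma, adjusted p = 0.423), with a 95% interval from -1.50 to 0.04. With the experiment as a block, a fit that removes what the arrays of 1 number share, the interval ran from -1.21 to -0.25, and the adjusted p of 0.0875 over all tested probe sets still missed the threshold of 0.05. Without the untreated culture of experiment 1 the difference was -0.39.

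The other de novo genes were dim. DNMT3A, the second active de novo enzyme, had signals (218457_s_at) of 51.6, 69.5 and 27.4 in zebularine cultures, against 150.7, 159.0 and 28.2 in untreated cultures. The untreated cultures of experiments 1 and 2 were the 2 arrays above 78.6, so DNMT3A was left out of the test; experiment 3 was dim in both arms. Its differences were -1.30, -1.03 and -0.03 in experiments 1, 2 and 3. Fitted without the filter, DNMT3A differed by -0.78 ± 0.63 (standard error; limma, adjusted p = 0.74). DNMT3L, the catalytically inactive cofactor, had signals (220139_at) of 28.7, 10.2 and 50.2 in zebularine cultures, against 99.4, 9.6 and 9.5 in untreated cultures. A single array passed 78.6, and the 3 experiments ran in different directions, at -1.36, 0.03 and 1.36 on the log2 scale.

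TRDMT1, the transfer RNA methyltransferase, had the largest positive difference of the tested members, of similar size in each experiment, and did not pass the test. Its signals (206308_at) were 127.1, 162.9 and 158.9 in zebularine cultures, against 64.8, 72.5 and 73.5 in untreated cultures. The groups did not overlap, and the ratios within experiments 1, 2 and 3 were 1.96, 2.25 and 2.16. The means were 150 ± 19.6 in zebularine and 70.3 ± 4.76 in untreated cultures (SD, n = 3 each). The log2 difference was 0.93 ± 0.41 (standard error; limma, unadjusted p = 0.0411, adjusted p = 0.374), with a 95% interval from 0.04 to 1.82. TRDMT1 lay above 78.6 on the 3 zebularine arrays alone, so it entered the test through the group where it was higher, and its untreated signals are in the range where MAS5 values are noisy. Under a filter on the mean of all 6 arrays, chosen after the data were seen, the adjusted p was 0.364. TRDMT1 passes that filter too through its zebularine arrays, since its untreated mean of 70.3 lies below 78.6. Fitted without any filter, its unadjusted p was 0.0596 (limma, adjusted p = 0.539). Leaving out 1 array at a time gave differences from 0.87 to 1.03.

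**Figure D1:**
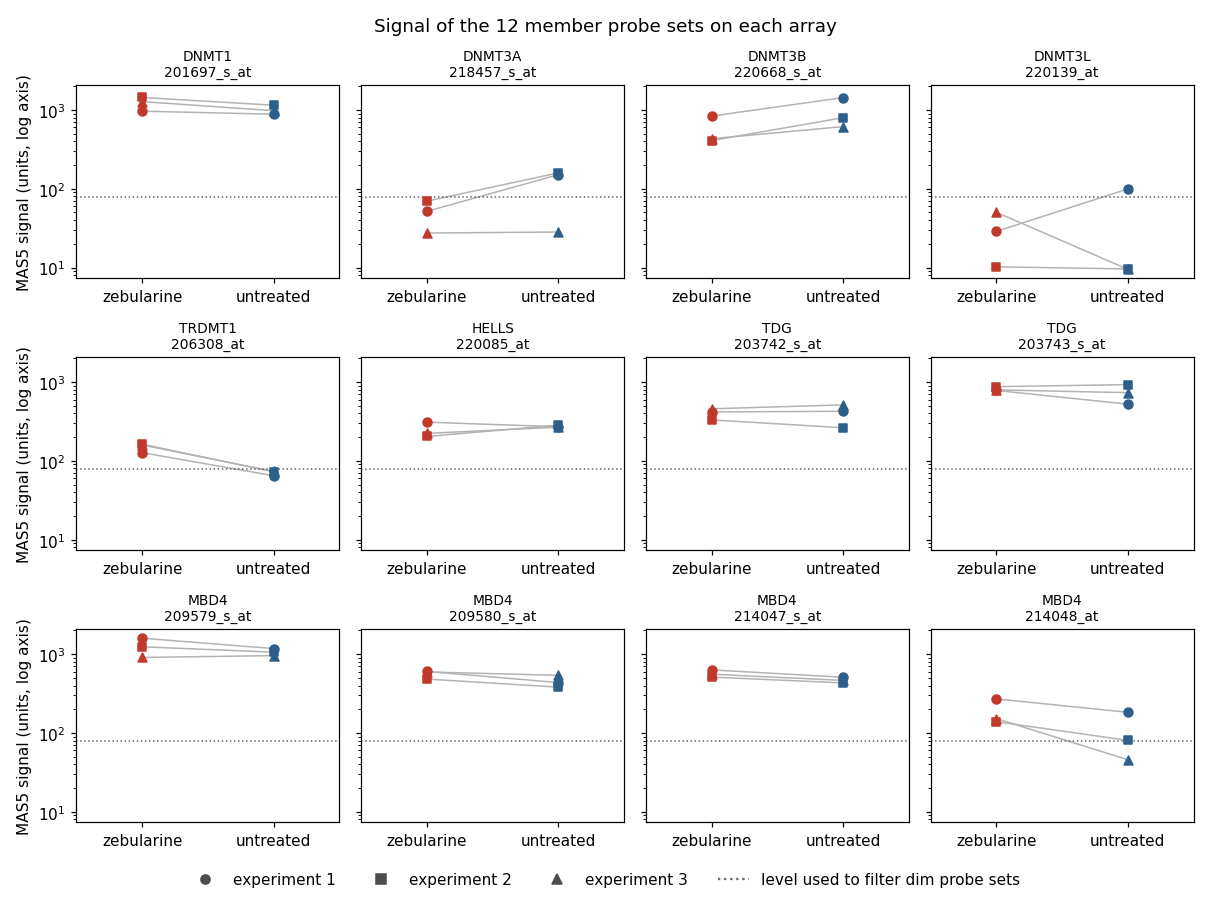
MAS5 signal (log axis) of the 12 member probe sets on the zebularine and untreated arrays, 3 each; symbols mark experiments 1, 2 and 3, grey lines join arrays of 1 experiment, and the dotted line is the level of 78.6. TRDMT1 lies above the line in zebularine and below it in untreated cultures, DNMT3B is lower in zebularine in each experiment, and DNMT3A and DNMT3L lie mostly below the line.

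HELLS, the chromatin remodeller that works with DNMT1, differed little between the groups. Its signals (220085_at) were 309.7, 204.1 and 223.1 in zebularine cultures, against 270.9, 284.0 and 267.9 in untreated cultures. Untreated cultures lay close together, while the zebularine cultures spread to both sides of them. The mean was 246 ± 56.3 in zebularine and 274 ± 8.56 in untreated cultures (SD, n = 3 each), and the log2 difference was -0.17 ± 0.29 (standard error; limma, adjusted p = 0.852). The 95% interval, from -0.80 to 0.46, also spans 0.

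The glycosylase TDG was read by 2 probe sets, and neither passed. At 203743_s_at the signals were 782.6, 874.6 and 795.7 in zebularine cultures, against 524.9, 927.7 and 733.6 in untreated cultures, and the groups overlapped. The log2 difference there was 0.20 ± 0.27 (standard error; limma, adjusted p = 0.811). At 203742_s_at the difference was 0.04 ± 0.30 (limma, adjusted p = 0.974), and the experiments differed in sign at both probe sets. The RefSeq table lists a pseudogene, TDGP1, and whether these probe sets also bind its transcript was not tested.

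MBD4, the thymine glycosylase with a methyl-CpG binding domain, had a higher mean in zebularine cultures at each of its 4 probe sets, by 0.19 to 0.88 on the log2 scale, without passing the test at any. At the brightest, 209579_s_at, signals were 1595.3, 1241.0 and 909.3 in zebularine cultures, against 1179.3, 1061.7 and 959.9 in untreated cultures. Experiments 1 and 2 were higher after zebularine and experiment 3 was not, and the difference was 0.19 ± 0.27 on the log2 scale (standard error; limma, adjusted p = 0.815). At 214047_s_at signals were 631.8, 511.9 and 557.8 in zebularine cultures, against 510.4, 432.6 and 465.0 in untreated cultures. There the groups did not overlap by a narrow margin, and the differences of 0.30, 0.23 and 0.25 in experiments 1, 2 and 3 were nearly equal. The mean difference was 0.26 ± 0.25 (standard error; limma, adjusted p = 0.709).

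The remaining MBD4 probe sets were 209580_s_at and 214048_at. Their differences were 0.31 ± 0.26 and 0.88 ± 0.48 (standard errors; limma, adjusted p = 0.671 and 0.483). The larger difference belongs to the dimmest of the 4: 214048_at had signals of 270.8, 139.2 and 152.3 in zebularine cultures, against 183.1, 80.6 and 45.8 in untreated cultures. Its difference was 0.50 without the untreated culture of experiment 3 and 1.34 without that of experiment 1. These 4 probe sets read 1 gene, so they are not independent observations of it.

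**Figure D2:**
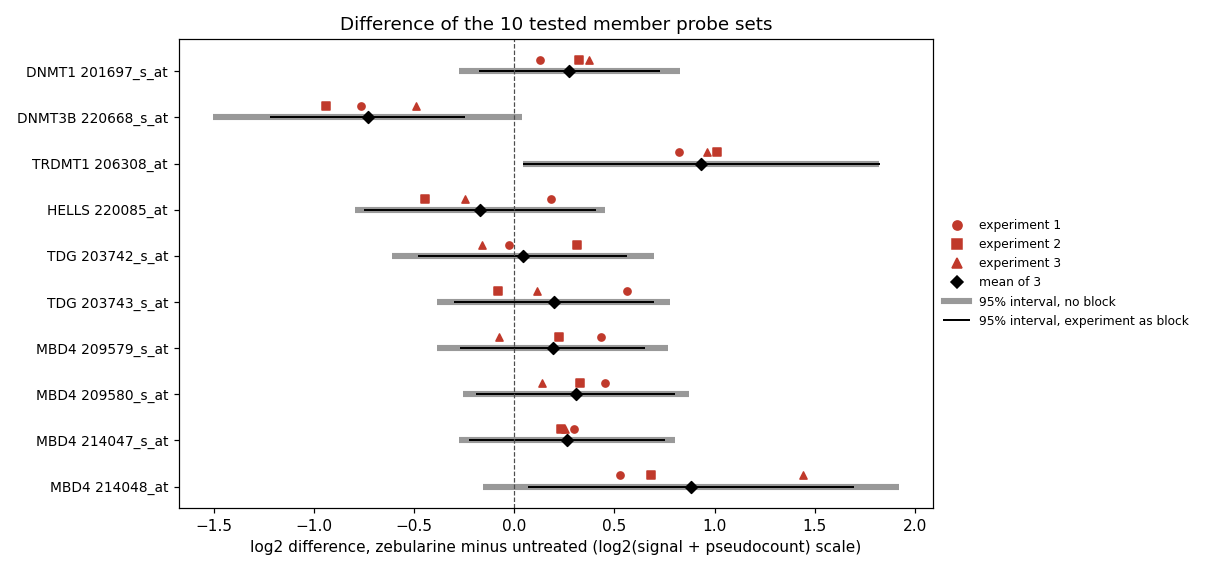
Log2 difference, zebularine minus untreated, of the 10 tested member probe sets; red symbols are experiments 1, 2 and 3, the diamond is their mean, and bars are 95% intervals without (grey) and with (black) the experiment as a block. All intervals without the block contain 0 except that of TRDMT1, which starts at 0.04, and DNMT3B is farthest to the left at -0.73.

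Over the whole group, limma called 0 of the 10 tested member probe sets after adjustment, both without and with the experiment as a block. Among all 13545 tested probe sets 0.62% were called without the block and 4.22% with it. At an unadjusted p under 0.05 there was 1 member probe set without the block, against 12.6% of all tested probe sets, and 3 with it, against 20.7%. The groups did not overlap at 2 of the 10 (TRDMT1 and 1 of MBD4), near the 17.6% of all tested probe sets. In 6 of the 10 all 3 experiments had the same sign, against 42.7% of all tested probe sets. The mean difference was positive at 8 of the 10, with a median of 0.23 against -0.01 for all tested probe sets, but 4 of these 8 belong to MBD4 and TRDMT1 entered through its treated arrays, so these figures describe the list and support no shift of it.

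Genes that work with the members were described from 6 lists, each gene by its brightest tested probe set. Of 67 genes 55 had a probe set and 47 were bright enough to test. Without the block limma called 0 of the 47 (10 at an unadjusted p under 0.05, against 13.1% of all tested genes), where 0.642% of all 7938 tested genes were called. With the experiment as a block 4 were called, against 4.45% of all tested genes; 3 were higher, against 2.17% of all tested genes, and 1 was lower, against 2.28%.

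Methyl-CpG readers, which bind the mark, were tested for 4 of 8 genes, and none passed in either fit (median difference 0.22, against -0.01 over all tested genes). ZBTB38, a zinc finger protein that binds methylated DNA, had signals of 1359.4, 1264.1 and 1510.8 in zebularine cultures, against 1224.7, 610.5 and 361.9 in untreated cultures. Zebularine cultures were alike and the untreated ones were not, so the log2 differences of 0.15, 1.03 and 2.01 in experiments 1, 2 and 3 were larger where the untreated signal was lower (mean 1.06 ± 0.36, standard error; limma, adjusted p = 0.251). The difference of ZBTB38 was 0.66 without the untreated culture of experiment 3, and with the block it was called without experiment 1 (1.52; adjusted p = 0.0383). MBD2, the brightest reader, differed by 0.08 ± 0.25 (limma, adjusted p = 0.925).

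Genes of methylcytosine oxidation and of base excision repair in demethylation were tested for 10 of 13 genes, with a median of -0.17. Of these, 3 had a positive and 7 a negative difference. POLB, the polymerase that fills the gap, had signals of 977.2, 1038.3 and 1281.6 in zebularine cultures, against 577.0, 618.0 and 704.3 in untreated cultures, with no overlap (0.78 ± 0.25, standard error; limma, adjusted p = 0.214). UNG, the uracil glycosylase, chosen after its values were seen, had signals of 344.1, 271.7 and 528.2 in zebularine cultures, against 530.4, 699.3 and 1023.8 in untreated cultures. It differed by -0.95 ± 0.32 (limma, adjusted p = 0.249) and was called lower with the experiment as a block (adjusted p = 0.0459). That call was lost without the filter (adjusted p = 0.0704 with the block) and without experiment 1, 2 or 3 (adjusted p = 0.0965, 0.0892 and 0.121 with the block). The brightest members of the list, the endonuclease gene APEX1 and the stress gene GADD45A, differed by -0.13 ± 0.25 and -0.32 ± 0.38 (limma, adjusted p = 0.873 and 0.776); GADD45A had opposite signs in experiments 1 and 2, at -1.28 and 0.92.

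Among partners of DNMT1, UHRF1 and HELLS, 6 of 10 genes were tested, with a median of 0.21. PCNA, the clamp that holds DNMT1 at the replication fork, had signals of 4336.0, 5042.5 and 5034.5 in zebularine cultures, against 1410.2, 4106.3 and 2733.7 in untreated cultures. The groups did not overlap, and the difference of 0.93 ± 0.34 (standard error; limma, adjusted p = 0.272) was called with the block (adjusted p = 0.0416). That call was lost without the filter (adjusted p = 0.056 with the block) and without experiment 1 (0.59; adjusted p = 0.249 with the block), and the unblocked difference was 0.51 without the untreated culture of experiment 1. HDAC1, a histone deacetylase that binds DNMT1, differed by 0.36 ± 0.23 (limma, adjusted p = 0.549).

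Genes of the methionine cycle and of the supply of the methyl donor S-adenosylmethionine were tested for 9 of 14 genes. Of these, 8 had a negative difference (median -0.25), and none passed in either fit at its brightest probe set. The list is wider than the cycle itself and holds SHMT2, MTHFD1, CBS and AHCYL1 as well. AHCY, which removes the inhibitory product S-adenosylhomocysteine, had signals of 646.3, 972.6 and 1153.3 in zebularine cultures, against 1697.0, 1394.2 and 1877.7 in untreated cultures. The groups did not overlap, and the difference was -0.86 ± 0.27 (standard error; limma, adjusted p = 0.218, and 0.055 with the block). SHMT2, a mitochondrial one-carbon enzyme chosen after its values were seen, differed by -0.88 ± 0.30 at its brightest probe set (limma, adjusted p = 0.249); the block gave adjusted p = 0.0586, and a call without experiment 2 (-1.24; adjusted p = 0.00374). At another of its probe sets, 214437_s_at, the difference was -1.10 (limma, adjusted p = 0.0784), a call with the block (adjusted p = 0.0218). The AHCY relative AHCYL1 and MAT2A, which makes S-adenosylmethionine, are the brightest members and differed by -0.25 ± 0.23 and 0.21 ± 0.31 (limma, adjusted p = 0.706 and 0.818).

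RNA cytosine methyltransferases, which like TRDMT1 methylate cytosine in RNA, were tested for 3 of 7 genes, and none passed in either fit (median 0.31). NSUN3, NSUN5 and NOP2 differed by 0.46 ± 0.32, 0.31 ± 0.24 and 0.13 ± 0.31 (standard errors; limma, adjusted p = 0.593, 0.629 and 0.901).

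Proliferation genes are given beside the members because DNMT1, UHRF1 and HELLS are known to be made mostly in dividing cells. All 16 were tested, 10 with a positive and 6 with a negative difference, with a median of 0.35. The negative ones were MCM2, MCM3, MCM5, MCM6, MCM7 and E2F1, at -0.33, -0.16, -0.36, -0.29, -0.14 and -0.15. None of these was called in either fit. MKI67, a proliferation marker, differed by 1.12 ± 0.25 (standard error; limma, adjusted p = 0.0756), and CDK1, the mitotic kinase, chosen after its values were seen, by 1.26 ± 0.30 (limma, adjusted p = 0.0862). With the block both were called higher (adjusted p = 0.00948 and 0.0118), MKI67 at its brightest probe set alone. Without experiment 1 the blocked call of MKI67 was lost (adjusted p = 0.0608), while that of CDK1 was kept without each experiment (adjusted p = 0.00815 to 0.0161). The blocked call of PCNA is given above with the settings that end it, and TYMS, the thymidylate synthase gene, differed by 0.24 ± 0.26 (limma, adjusted p = 0.76). What part this has in the members' values was not tested.

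**Figure D3:**
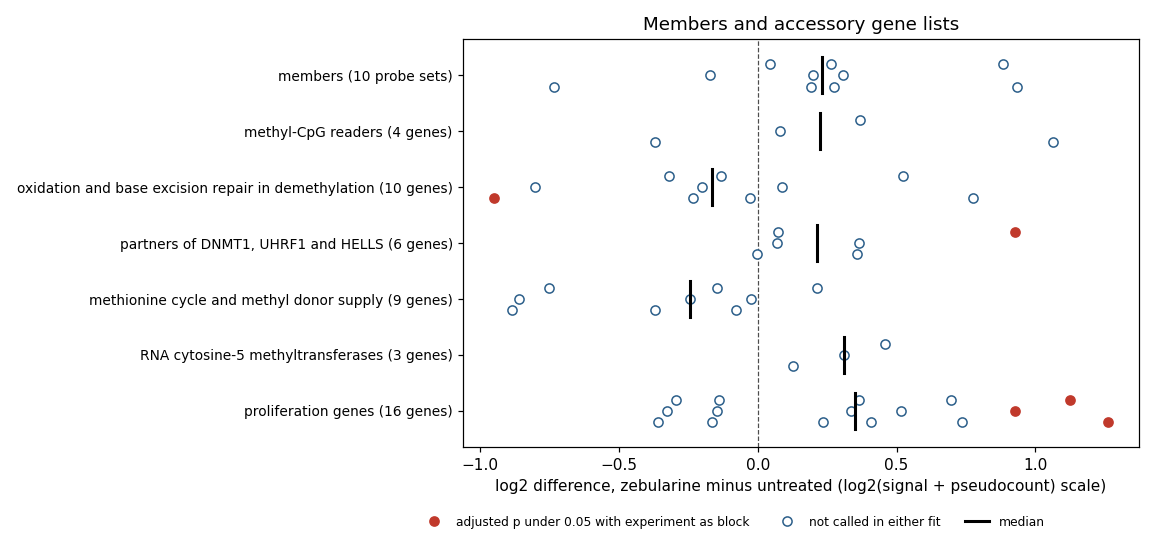
Log2 difference, zebularine minus untreated, of the 10 tested member probe sets and of the tested genes of 6 accessory lists; each circle is a probe set or gene, filled where it was called with the experiment as a block, and the bar is the list's median. The filled genes are UNG at -0.95 and PCNA, MKI67 and CDK1 between 0.93 and 1.26, with PCNA drawn in both lists that hold it.

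Profiles most like those of DNMT1 and DNMT3B were sought among the other 7937 tested genes, by the root mean square distance between log2 values over the 6 arrays, each centred on its own mean. For DNMT3B these were PROS1, which encodes the anticoagulant protein S, at a distance of 0.14, CMC4 at 0.17 and the kinase gene CLK2 at 0.18, against a median distance of 0.69. PROS1 had signals of 1727.6, 909.3 and 810.3 in zebularine cultures, against 2627.5, 1693.9 and 1499.3 in untreated cultures, with experiment 1 the brightest in both arms as for DNMT3B. It was picked for its likeness to DNMT3B on these same arrays, treatment difference included. Its direction and its bright experiment 1 therefore follow from the choice and are no support for DNMT3B. PROS1 differed by -0.79 (limma, adjusted p = 0.341), was called lower with the block (adjusted p = 0.0466), and lost that call without experiment 1, 2 or 3 (adjusted p = 0.146, 0.0653 and 0.166). For DNMT1 the nearest were the pseudogene HMGB3P1 at 0.03, the glycerol phosphate dehydrogenase gene GPD2 at 0.06 and FAM234B at 0.06, against a median of 0.45. These were much dimmer than DNMT1, with signals of 107.9 to 185.4 for HMGB3P1, 76.0 to 133.7 for GPD2 and 134.0 to 222.9 for FAM234B. Whether the probe set of HMGB3P1 also binds other transcripts was not tested. These distances are a description over 6 arrays that share 3 experiments, and the nearest of 7937 genes lie below the median by selection.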

How the data were processed

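Total RNA of 3 zebularine and 3 untreated A-498 cultures was measured on Affymetrix arrays. The deposited table holds 1 linear intensity per probe set and array, from MAS5 per the submitters' processing notes (its version was not given in the sources used here). Groups and replicate numbers came from the sample titles, which read biological rep 1, 2 or 3 in each group. These numbers are called experiments here. After subtraction of group means, same-numbered arrays correlated over probe sets at 0.3235, 0.2104 and 0.2718. The numbers were therefore taken as pairs for differences within experiments and for the block. The fit reported has no block and leaves this pairing out. Standard errors, intervals and p-values come from that fit unless the block is named. No 2 arrays shared more than 0.198% of their values.

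Intensities were taken as log2(signal + 16.34), the median divided by 8, with no further scaling. Without the 62 controls, 13545 of 22215 probe sets reached 78.6 (the 40th percentile) on at least 3 of 6 arrays. Genes came from the platform annotation, through probe sets with 1 symbol (19070; 1043 had several and 2164 none). The test was limma 3.58.1 under R 4.3.3 (mean-variance trend, two-sided). Adjustment was by Benjamini-Hochberg over all 13545, with a call at an adjusted p under 0.05. The fit was also run on simulated arrays with normal noise and planted changes, which does not vouch for the calls on these arrays. Tables and figures were made in Python 3.11.15 with matplotlib 3.10.9. The members and lists were chosen with earlier results of these data known. Named are all members, each list's called genes, its smallest p and its 2 brightest tested genes, and the 3 nearest profiles of DNMT1 and DNMT3B. Alternatives varied the block, pseudocount, filter, normalization, variance trend, arrays and averaging of probe sets. Detection calls were not used, and precision is limited by having 6 arrays. A p-value covers the spread between these cultures alone.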

Additional observations from a re-analysis of the deposited data

How the results depend on the processing

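Of the 10 tested member probe sets limma called 0 under every alternative run, with 0 to 3 at an unadjusted p under 0.05, and DNMT1, DNMT3B, TRDMT1, HELLS and 3 of the 4 MBD4 probe sets kept their sign. The replicate block, which uses the paired arrays, changed no member's call. Among the other genes named, at their brightest probe sets, it changed those of UNG, PCNA, MKI67, CDK1 and PROS1. It also changed that of SHMT2 at 214437_s_at. Of 184 member values under alternatives 5 changed sign: TDG at 203742_s_at was -0.0921 without both arrays of experiment 2 and ran from -0.22 to 0.24 with 1 array left out at a time, TDG at 203743_s_at ran from -0.0145 to 0.39, and MBD4 at 209579_s_at from -0.0011 to 0.40. Over all probe sets limma called 84 in the fit reported, 572 with the replicate block, 53 with a smaller pseudocount, 42 with no filter, 6 with no mean-variance trend, and 0 to 96 with 1 array left out, lowest without the zebularine culture of experiment 2 (1315 at an unadjusted p under 0.05). Without experiment 1, 2 or 3 the block called 194, 1023 and 335. Of the 47 accessory genes 0 were called (10 at an unadjusted p under 0.05), 4 with the block, 3, 7 and 3 with the block without experiment 1, 2 or 3, and 0 to 1 with 1 array left out, the 1 without the zebularine culture of experiment 1 or the untreated culture of experiment 2. Sign changes of accessory genes, by 1 array left out, were within these ranges: MBD2 -0.0593 to 0.22, APEX1 -0.29 to 0.0002, MAT2A -0.0947 to 0.55 and NOP2 -0.14 to 0.37. With the block, GADD45A was 0.16 without experiment 1 and -0.94 without experiment 2, where it was called (adjusted p = 0.0271), AHCY was called without experiment 2 (-1.03; adjusted p = 0.0217), and MAT2A and NOP2 were -0.14 and -0.0157 without experiment 3. The cause was not tested. Dim MAS5 signals limit DNMT3A, DNMT3L and TRDMT1.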

Other observations

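Probe sets of a gene did not always run the same way. MKI67 was read by 4 probe sets, examined after their values were seen. The brightest, 212022_s_at, averaged 2441 ± 518 in zebularine and 1099 ± 141 in untreated cultures (SD, n = 3 each), and 212021_s_at averaged 1180 ± 259 in zebularine and 723 ± 135 in untreated cultures. At 212023_s_at the signal was instead lower in zebularine cultures in all 3 experiments, at 343.0, 260.7 and 232.1, against 406.8, 366.3 and 309.1 in untreated cultures (log2 difference -0.36 ± 0.28, standard error; limma, adjusted p = 0.632). At 212020_s_at the difference was 0.14 ± 0.29 (standard error, limma, adjusted p = 0.884), and the experiments differed in sign. The proliferation value of MKI67 therefore depends on the probe set read.

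The 3 probe sets of SHMT2, a mitochondrial one-carbon enzyme, were lower in zebularine cultures in each experiment, with differences of -0.88, -1.01 and -1.10, and 214437_s_at passed with the experiment as a block (610 ± 75.9 in zebularine and 1329 ± 218 in untreated cultures; limma, adjusted p = 0.0784 without the block and 0.0218 with it). The 3 probe sets of CDK1 were higher in zebularine cultures, by 1.10 to 1.26, and each passed with the block. These genes were chosen after their values were seen.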
